A study of Mus musculus and Homo sapiens with 15 samples.

Results

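All 6 thymus tumour libraries from mice given arsenic trioxide (ATO) were set against the 3 from mice given water, with the treated tumours that progressed and those that regressed given equal weight. The mice were homozygous for the p53 allele R282W (written W/W in the labels), carried T-lymphomas and were sampled at day 150 after birth. Treated and control mice share this genotype, tissue and day, and the mice differ in treatment and, among the treated, in outcome: 3 ATO libraries came from tumours in progression and 3 from tumours in regression. The genes described are those whose 6 ATO values, in counts scaled to library size (CPM), all lay above or all lay below the 3 water values. They number 2226 of the 18119 genes tested, out of 52340 genes listed and 34428 with at least 1 count, and a further 294 such genes had too few counts to be tested. The 9 libraries are part of a series of 15. The others are 4 tumours of a CDX model in C57 mice given ATO or phosphate-buffered saline (PBS) and 2 cultures of U937. In this human cell line the R282W mutant of p53 was expressed.

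T cells mature in the thymus. Immature thymocytes cut and join their receptor gene segments with the recombinase made of Rag1 and Rag2, and the polymerase Dntt adds nucleotides at the joints. The first receptor on their surface pairs the beta chain with the pre-T-cell receptor alpha chain, encoded by Ptcra, and Notch1 signalling drives the early steps. Later stages carry Cd4 and Cd8a together, and cells that leave the thymus switch on Ccr7 and S1pr1. The tumour suppressor p53, mutated in these mice, restrains T-lymphomas, and ATO is a drug for acute promyelocytic leukaemia that binds protein thiols and degrades the PML protein. Cells can answer arsenic with heme oxygenase (Hmox1), metallothioneins and stress-response genes.

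The 9 libraries held 12800367 to 17550594 counts each, and the authors' gene table gave 0 counts in no library for the T-cell genes Cd3e and Lck and the leukocyte gene Ptprc. Scaling factors were lowest in water replicate 2 (0.747) and progressing replicate 2 (0.794) and lay between 1.03 and 1.16 in the others. The mitochondrial share of counts ran from 2.08% to 8.83%, highest in progressing replicate 2 and regressing replicate 3. Groups were sorted by outcome, the dose, duration and start of ATO are not given in the labels, and no batch is named. The labels speak of mice but do not tie each library to its own animal, so the p-values measure the spread between these samples, which may be technical. In whole tissue, fewer cells of a type and less RNA per cell cannot be told apart.

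Rag1, Rag2, Dntt and Ptcra, with which immature thymocytes build their antigen receptor, were far higher in every ATO library than in any water library. Of the lists examined, 12 of 13 class II and 11 of 18 class I antigen presentation genes fell, as did 15 of 32 chemokine and receptor genes, against 7.3% of all tested genes. The falls without overlap numbered 11, 10 and 8 in these lists, against 4.02% of all tested genes. With the 6 ATO libraries fitted as one group, 1, 1 and 4 of their genes passed as lower, beside 199 of all tested genes. B cell and cytotoxic lymphocyte genes fell too, 21 of 24 and 14 of 19, with 5 falls without overlap in each list. That both outcomes lie on the same side of water is part of the selection. The level also differed between outcomes, counted over all tested members of a list, whether or not they overlapped or passed against water. Of these, 9 of 18 class I, 5 of 13 class II and 10 of 32 chemokine genes were higher in regressing than in progressing tumours. So were 12 of 24 B cell and 11 of 19 cytotoxic lymphocyte genes. The share of all tested genes was 6.45%, and 2 chemokine genes were lower. Among the 18119 tested genes, 1110 (6.13%) were higher in every ATO library than in every water library and 1116 (6.16%) were lower in every one (12.3% together). By the quasi-likelihood test of edgeR, with p-values adjusted after Benjamini and Hochberg, 10.9% of the tested genes passed, 3.57% higher and 7.3% lower. The counts of list members that passed, given below, are to be read beside these shares. Both criteria together left 546 rises (3.01% of the tested genes) and 729 falls (4.02%). Counts of list members that passed without overlap are to be read beside these shares. The rises and falls make up 84.5% of the genes called higher and 55.1% of those called lower. The remaining 100 called rises and 593 called falls overlapped between the groups, and 564 higher and 387 lower genes were apart but did not pass the test. Because one set of samples gives both the separation and the test, the first is a description and no support for the second.

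The separation was often wide. It is measured here as the gap, the distance between the nearest ATO and water library on the log2(CPM + 0.5) scale. Of the rises, 135 had a gap over 1 and 49 a gap over 2, up to 6.99. Of the falls, 103 had a gap over 1 and 4 a gap over 2, up to 3.02. The median log2 fold change was 2.21 for the rises and -1.83 for the falls, against -0.11 for all tested genes. Scaled by library totals alone, the median of all tested genes was 0.00747, and no named gene that passed changed sign under any scaling. Long intergenic noncoding RNAs made up 8.24% of the rises, 2.19% of the falls and 2.99% of the tested genes.

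Many calls depended on single libraries. Of the 546 rises, 208 passed in each of the 9 fits that left out 1 library, as did 272 of the 729 falls. The plot of calls by setting shows the whole count under each alternative. Among the fits without a library, it was lowest without regressing replicate 2, at 656 genes, and next without regressing replicate 1, at 834. With the 6 ATO libraries fitted as one group, where the difference between outcomes adds to the spread, it was lower still, at 366 genes, and 167 of the rises and 182 of the falls passed.

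**Figure D1:**
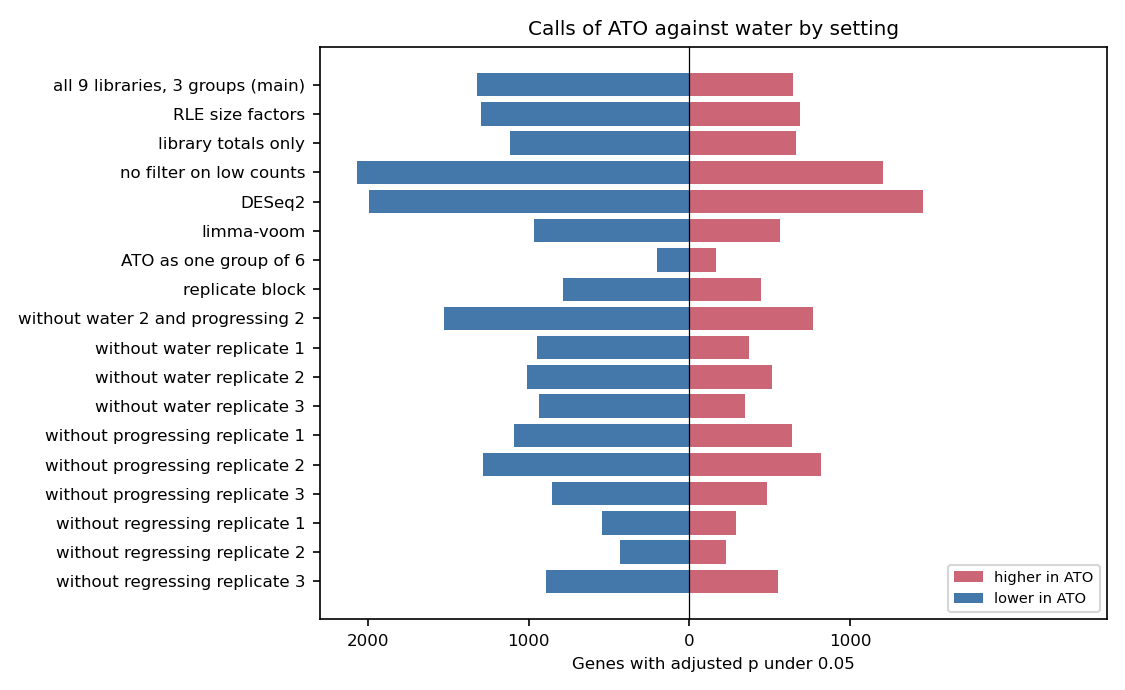
Number of genes past an adjusted p of 0.05 in ATO against water under each setting, higher in ATO to the right and lower to the left. The reported fit gave 646 higher and 1322 lower genes, the fit of ATO as one group of 6 gave 167 and 199, and DESeq2 gave 1452 and 1996.

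Arpp21, Dntt and Rag1, all known from immature thymocytes, were among the rises with the widest gaps. Arpp21, an RNA-binding phosphoprotein gene found in immature thymocytes and neurons (GRCm38 chromosome 9, 112065091 to 112235938), had 0.903, 0.687 and 0.309 CPM with water, 243, 225 and 178 in progression and 367, 448 and 258 in regression. All 6 ATO libraries lay far above the 3 water libraries. It had the lowest adjusted p of all genes (log2 fold change 8.76, SE 0.49, adjusted p = 4.79e-05), and over the 9 fits without a library the log2 fold change ran from 8.42 to 9.12. Dntt, the polymerase that adds nucleotides at receptor joints (chromosome 19, 41029275 to 41059525), had 1.16, 3.28 and 0.37 CPM with water, 791, 432 and 385 in progression and 1189, 1258 and 679 in regression. Its lowest ATO library, progressing replicate 3, lay far above its highest water library, replicate 2 (log2 fold change 8.88, SE 0.81, adjusted p = 0.000792). Rag1, the recombinase subunit that cuts the receptor segments (chromosome 2, 101638282 to 101649501), had 2.13, 2.29 and 0.617 CPM with water, 591, 258 and 1386 in progression and 3297, 3393 and 1506 in regression. The groups did not overlap, and the regressing libraries lay above all 3 progressing libraries (log2 fold change 9.73, SE 0.90, adjusted p = 0.000792). The difference between outcomes in Rag1, 1.87 (SE 0.64, adjusted p = 0.0779), did not pass. All 3 calls held in each of the 9 fits without a library.

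Rag2, Ptcra and Aqp11 rose as well. Rag2, the other recombinase subunit, had 0.154 ± 0.205 CPM (SD, n = 3) with water, 45.03 ± 36.04 in progression and 244 ± 87.4 in regression (log2 fold change 9.32, SE 1.15, adjusted p = 0.00213). Rag1 and Rag2 both overlap B230118H07Rik, Rag1 on the same strand, and whether counting used strand is not given in the sources used here, so reads in the shared stretches cannot be assigned with certainty. Ptcra, the pre-T-cell receptor alpha chain (chromosome 17, 46755663 to 46763712), had 0.129, 0 and 0.0617 CPM with water, 88.8, 2.03 and 29.9 in progression and 16.5, 19.98 and 11.6 in regression. The water libraries held 3 counts in all, and the ratio of pooled counts was 445 (95% interval 152 to 2159, counting error only). Progressing replicate 2 was the lowest of the ATO libraries and was still above all water libraries (log2 fold change 8.41, SE 1.36, adjusted p = 0.00662). Aqp11, an aquaporin gene, had 0.857 ± 0.489 CPM (SD, n = 3) with water, 56.3 ± 37.8 in progression and 294 ± 99.3 in regression (log2 fold change 7.19, SE 0.80, adjusted p = 0.00148).

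The 250 bases before and 50 after the annotated start of 3 of these genes are shown because the genes rose together, with each match to the E-box CAGCTG (searched on both strands) in capitals. They come from RefSeq (GRCm38.p6), Rag1 at chr2:101649483-101649782 (minus strand), Ptcra at chr17:46763663-46763962 (minus strand) and Dntt at chr19:41029025-41029324 (plus strand), each read 5′ to 3′ on the gene's strand.
Rag1: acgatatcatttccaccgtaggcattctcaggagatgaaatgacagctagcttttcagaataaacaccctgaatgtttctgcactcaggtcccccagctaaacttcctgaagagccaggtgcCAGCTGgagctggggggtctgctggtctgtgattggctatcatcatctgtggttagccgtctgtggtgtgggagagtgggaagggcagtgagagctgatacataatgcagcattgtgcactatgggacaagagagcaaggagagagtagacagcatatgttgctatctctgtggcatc
Ptcra: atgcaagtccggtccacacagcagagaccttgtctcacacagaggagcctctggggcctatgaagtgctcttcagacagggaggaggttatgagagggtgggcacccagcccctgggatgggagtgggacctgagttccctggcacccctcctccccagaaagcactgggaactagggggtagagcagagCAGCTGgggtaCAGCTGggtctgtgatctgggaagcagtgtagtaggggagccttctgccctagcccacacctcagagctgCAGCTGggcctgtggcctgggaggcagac
Dntt: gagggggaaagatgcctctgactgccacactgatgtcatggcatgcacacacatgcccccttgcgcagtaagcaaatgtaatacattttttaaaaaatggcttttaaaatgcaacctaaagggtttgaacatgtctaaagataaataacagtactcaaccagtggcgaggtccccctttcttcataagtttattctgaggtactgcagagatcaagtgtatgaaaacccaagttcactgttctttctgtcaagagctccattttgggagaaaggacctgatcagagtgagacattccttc
The E-box was found once in the Rag1 window, 3 times in the Ptcra window and not in the Dntt window. Of the 30 genes with the widest separation named here, 20 matched an entry, and the first listed start was used. The E-box was in 4 of 9 windows of rises and 2 of 11 windows of falls, against 16.1% of all 27025 promoters. A match is a description of the letters and no evidence of binding.

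Over the list of 36 immature thymocyte genes, all tested, 17 rose and 5 fell, and all 17 that rose were apart in the 9 libraries. The median log2 fold change was 1.62, against -0.11 for all tested genes. Cd4, the co-receptor for class II, had 59.1 ± 24.5 CPM (SD, n = 3) with water, 295 ± 158 in progression and 715 ± 233 in regression (log2 fold change 2.96, SE 0.46, adjusted p = 0.00583). Cd8a, the co-receptor for class I, had 163 ± 110.0 CPM (SD, n = 3) with water, 649 ± 93.1 in progression and 1586 ± 516 in regression (log2 fold change 2.63, SE 0.56, adjusted p = 0.017). Bcl11b, a factor that commits cells to the T lineage, and Ets2, another transcription factor, were also higher (log2 fold changes 2.15 and 1.98). So were Myb, Lat and Tcf12 (log2 fold changes 2.40, 2.09 and 1.45). Of the 17 rises, 14 held in all 9 fits without a library. Lck lost its call without water replicate 1 or 3 or regressing replicate 2, Satb1 without water replicate 3 or regressing replicate 2, and Cd1d1 without regressing replicate 1 or 2 (adjusted p up to 0.0698). With ATO as one group of 6, 11 of the list passed as higher and 0 as lower.

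The 5 list members that fell were Ccr7, Il7r, Cd5, Cd2 and S1pr1, of which Ccr7 and S1pr1 are known from mature cells. Ccr7, the receptor that guides T cells to lymph nodes (chromosome 11, 99144196 to 99155077), had 77.4, 66.2 and 26.9 CPM with water, 1.42, 5.33 and 3.01 in progression and 16.6, 13.3 and 21.1 in regression, with every ATO library below every water library (log2 fold change -2.94, SE 0.44, adjusted p = 0.00513). Il7r, the interleukin 7 receptor chain, had 501 ± 463 CPM (SD, n = 3) with water, 4.91 ± 4.25 in progression and 53.4 ± 18.5 in regression (log2 fold change -4.95, SE 0.88, adjusted p = 0.00894). Its water libraries spread widely and the groups overlapped. Cd5, a brake on receptor signalling, fell on the mean of both outcomes (log2 fold change -1.82, SE 0.31, adjusted p = 0.00796), but its regressing level, 118 ± 23.8 CPM (SD, n = 3), lay beside its water level, 124 ± 17.1 CPM, and its progressing level was 10.3 ± 4.87 CPM. Cd2, an adhesion receptor, had 129 ± 96.6 CPM (SD, n = 3) with water, 16.2 ± 3.16 in progression and 94.005 ± 15.7 in regression (log2 fold change -1.72, SE 0.38, adjusted p = 0.0188), not passing without water replicate 2 or regressing replicate 2 (adjusted p up to 0.0753). S1pr1, the exit receptor, was lower in all 6 ATO libraries (log2 fold change -2.08, SE 0.51, adjusted p = 0.0277), not passing without water replicate 2, progressing replicate 3, regressing replicate 1 or regressing replicate 2 (adjusted p up to 0.116).

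Markers of other cells moved beside these genes. The summed level of the 36 thymocyte genes was 4107 to 5041 CPM with water, 9543 to 10368 in progression and 12911 to 23836 in regression. The summed level of the 24 thymic epithelium genes was 433 to 2099 CPM with water, 299 to 630.3 in progression and 3685 to 4170.2 in regression, so it separated the outcomes and not ATO from water. The 25 adipocyte and brown fat genes summed to 267 to 819 CPM with water, 241 to 2902 in progression and 584 to 25240.0 in regression, with the top value in regressing replicate 3. Of those 25, 2 passed as higher and 0 as lower (19 at an unadjusted p under 0.05 and 18 by DESeq2 as higher, 0 as lower by both), with a median log2 fold change of 4.48. That list gave 0 calls without water replicate 1, 0 without water replicate 2, 1 without water replicate 3, 0 without regressing replicate 2 and 1 without regressing replicate 3, and 0 with ATO as one group. The part of these cells in the thymocyte result was not tested. Of 30 proliferation genes 2 passed as higher and 1 as lower, with a median log2 fold change of -0.19 (-0.63 in regressing and 0.45 in progressing tumours). The proliferation list gave 1 call without water replicate 1, 1 without water replicate 3, 1 without progressing replicate 1, 0 without regressing replicate 1 and 0 without regressing replicate 2.

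**Figure D2:**
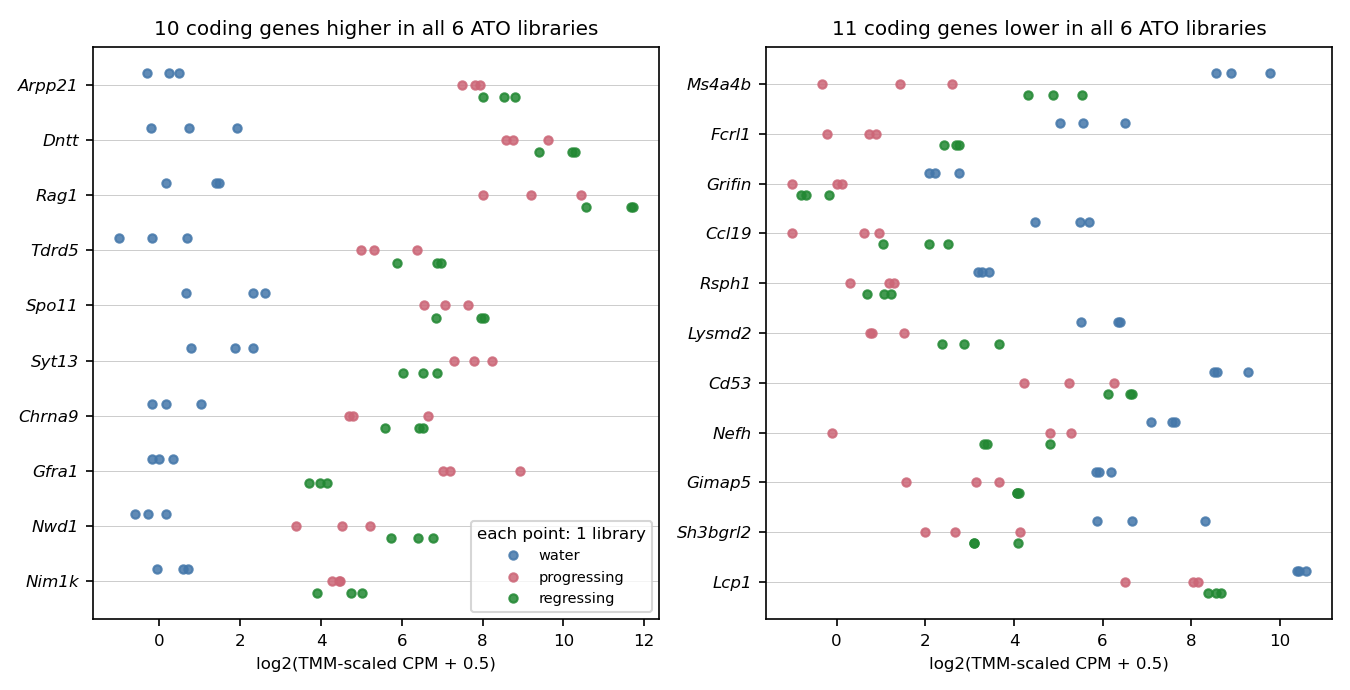
Levels by library of 10 protein-coding rises (left) and 11 falls (right) among those with the widest separation, on the log2(TMM-scaled CPM + 0.5) scale, 1 point per library. In each row the 6 ATO points (progressing and regressing) lie on one side of the 3 water points. The outcomes part from each other in Gfra1 and Ms4a4b and overlap in Rsph1.

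Among the widest rises were genes known from germ cells. Tdrd5, a Tudor domain gene of spermatogenesis, had 0.387, 0 and 1.11 CPM with water, 31.5, 39.1 and 82.4 in progression and 117, 125 and 58.2 in regression (log2 fold change 7.09, SE 0.88, adjusted p = 0.00213). Spo11, which makes the DNA breaks of meiosis, had 5.61, 1.07 and 4.51 CPM with water, 93.9, 199 and 133 in progression and 248, 264 and 114 in regression (log2 fold change 5.52, SE 0.63, adjusted p = 0.00161). Its water libraries were not silent, and the lowest ATO library, progressing replicate 1, still lay well above them. Tdrd5 overlaps a noncoding gene on its own strand, so its reads may be shared in part. Each of these calls held in all 9 fits without a library. The list of 27 developmental and germline genes, chosen with these results known, had 11 tested members, of which Dazl, a germ cell RNA-binding gene, rose with overlap (log2 fold change 3.45) and 5 others fell.

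Neighbours were common among the genes described: 152 of the 546 rises (27.8%) had a separate rise within 50 kilobases whose span did not overlap theirs, against 6.32% of all tested genes. For the falls it was 156 of 729 (21.4%), against 10.1% of all tested genes. The stretch of Rag2 and Rag1 and the Ms4a stretch on chromosome 19 are examples. This count was added after such neighbours had been seen, and it has no test.

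Syt13, Chrna9, Nim1k, Gfra1 and Nwd1 were also among the coding rises with the widest gaps. Syt13, a synaptotagmin, had 3.16, 1.22 and 4.51 CPM with water, 219, 301 and 157 in progression and 91.2, 116 and 65.2 in regression (log2 fold change 5.58, SE 0.51, adjusted p = 0.000792). All 3 progressing libraries lay above the regressing ones, but the difference between outcomes, -1.31 (SE 0.44, adjusted p = 0.0719), did not pass. Chrna9, a nicotinic acetylcholine receptor subunit, had 0.387, 1.53 and 0.617 CPM with water, 25.5, 27.4 and 99.9 in progression and 85.01, 92.1 and 47.5 in regression (log2 fold change 6.201, SE 0.74, adjusted p = 0.00188). Nim1k, a protein kinase gene, had 0.451, 1.15 and 0.988 CPM with water, 18.9, 21.6 and 21.4 in progression and 26.2, 31.98 and 14.5 in regression, with the outcomes overlapping (log2 fold change 4.69, SE 0.52, adjusted p = 0.00146). Gfra1, the co-receptor for glial cell line-derived neurotrophic factor, which immature thymocytes also express, had 0.387, 0.764 and 0.494 CPM with water, 145, 129.6 and 488 in progression and 15.3, 17.3 and 12.5 in regression (log2 fold change 6.81, SE 0.63, adjusted p = 0.000792). It was higher than water in both outcomes and highest in progression, with a log2 difference of regressing minus progressing of -4.08 (SE 0.54, adjusted p = 0.00743). Nwd1, a NACHT and WD repeat gene, went the other way, with 0.322, 0.153 and 0.617 CPM with water, 36.6, 9.89 and 22.4 in progression and 84.5, 109 and 53.02 in regression (log2 fold change 6.84, SE 0.67, adjusted p = 0.000878). Its regressing libraries lay above its progressing libraries, by 1.84 (SE 0.53, adjusted p = 0.0462).

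Among noncoding genes and those known only by provisional symbols, BC028471, 1810059H22Rik and Gm10499 rose with the widest gaps. BC028471 (chromosome 5, 149367636 to 149393596) had 2 counts over the water libraries and 24.05, 20.5 and 56.2 CPM in progression and 61.2, 61.6 and 25.8 in regression. The ratio of pooled counts was 938 (95% interval 259.6 to 7752, counting error only), and it overlaps another gene on its strand. 1810059H22Rik, on the same chromosome (chromosome 5, 148953748 to 148970122), had 1.35, 0.535 and 1.79 CPM with water, 95.6, 51.8 and 107 in progression and 136, 145 and 66.3 in regression (log2 fold change 6.31, SE 0.55, adjusted p = 0.000792). Gm10499 (chromosome 17, 36141758 to 36145923) had 0.322, 0.153 and 0.679 CPM with water, 88.1, 27.5 and 24.7 in progression and 59.7, 60.8 and 21.8 in regression (log2 fold change 6.88, SE 0.79, adjusted p = 0.00162), with one progressing library above and the others among the regressing ones. Gm10499 is annotated as a transcribed pseudogene and overlaps a gene on the other strand. 1810059H22Rik overlaps other genes on its own strand, so the reads of both may be shared in part.

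Among the 100 genes with the widest gaps, the 5 with the smallest difference between outcomes were Gm10499, Rsph1, Gm15340, Zfyve28 and Tspan2. Tspan2, a tetraspanin membrane protein, had 4.901, 4.73 and 3.58 CPM with water, 37.98, 29.2 and 39.6 in progression and 35.8, 40.8 and 25.2 in regression. The ATO libraries of both outcomes fell in one range, and every one lay above the water libraries (log2 fold change 2.98, SE 0.35, adjusted p = 0.0017). Zfyve28, a zinc finger protein of endosomes, had 1.93, 0.687 and 1.48 CPM with water, 16.2, 9.81 and 15.4 in progression and 14.5, 16.4 and 8.704 in regression (log2 fold change 3.29, SE 0.53, adjusted p = 0.00662). Rsph1, a radial spoke protein of cilia and sperm tails, was lower, with 10.4, 8.63 and 9.199 CPM with water, 1.79, 1.94 and 0.735 in progression and 1.61, 1.84 and 1.12 in regression (log2 fold change -2.64, SE 0.46, adjusted p = 0.00829). As regressing minus progressing, the log2 differences were -0.07 (SE 0.34) for Tspan2, -0.06 (SE 0.51) for Zfyve28 and 0.03 (SE 0.57) for Rsph1. These 5 were chosen for their small difference, which is therefore a description.

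Genes of Notch signalling and of known T-lymphoma drivers moved in both directions. Of 24 tested, 4 rose (Notch1, Ptcra, Bcl11b and Ccnd3) and 7 fell (Ccnd2, Lyl1, Hes5, Myc, Lmo2, Hhex and Ikzf2), with a median log2 fold change of 0.35. The shares of all tested genes were 3.57% higher and 7.3% lower. Notch1, the receptor itself, had 50.2, 16.2 and 36.9 CPM with water, 517, 154 and 702 in progression and 109.7, 122 and 99.6 in regression (log2 fold change 2.71, SE 0.53, adjusted p = 0.0125). Its ATO libraries were all above water and were highest in progressing replicates 1 and 3. The difference between outcomes was -2.05 (SE 0.55, adjusted p = 0.0374). The Notch targets Hes1, Dtx1 and Nrarp did not pass, with log2 fold changes of 0.73, 0.97 and -0.24. Hes5, another target, fell by 3.54 on the log2 scale with overlap (adjusted p = 0.0292), passing in 3 of the 9 fits, those leaving out water replicate 1, water replicate 3 or progressing replicate 2 (adjusted p up to 0.123 in the others).

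Myc, a growth-promoting transcription factor gene of many lymphomas, had 199.5, 996 and 171 CPM with water, 70.9, 87.8 and 35.3 in progression and 32.9, 36.8 and 64.6 in regression (log2 fold change -3.08, SE 0.54, adjusted p = 0.00817). Water replicate 2 held the top value, and leaving it out gave a log2 fold change of -1.74 (adjusted p = 0.02). Lmo2, a partner of stem cell transcription factors, had 69.3, 42.3 and 76.2 CPM with water, 6.78, 13.4 and 3.46 in progression and 7.36, 6.07 and 13.8 in regression, with all ATO libraries below water and the outcomes alike in range (log2 fold change -2.89, SE 0.43, adjusted p = 0.00513). The D cyclins parted: Ccnd2 had 288 ± 78.7 CPM (SD, n = 3) with water, 5.44 ± 1.93 in progression and 89.6 ± 33.8 in regression (log2 fold change -3.71, SE 0.32, adjusted p = 0.000792), and Ccnd3 had 135 ± 37.2 CPM (SD, n = 3) with water, 252 ± 61.99 in progression and 536 ± 123 in regression (log2 fold change 1.44, SE 0.31, adjusted p = 0.0169). Over the fits without a library Ccnd2 stood and Ccnd3 did not, not passing without water replicate 1, water replicate 3 or regressing replicate 2 (adjusted p up to 0.0654). Over the list, 7 to 12 genes passed when 1 library was left out, fewest without regressing replicate 2, and 3 passed with ATO as one group.

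Of the 23 tested Wnt pathway inhibitors and receptors, 2 rose and 2 fell, against 3.57% higher and 7.3% lower among all tested genes, so few calls that nothing is read from the list. Kremen1, a receptor for Dickkopf inhibitors of Wnt signalling (chromosome 11, 5191552 to 5261558), had 24.1, 28.02 and 27.2 CPM with water, 190.2, 435 and 228 in progression and 222, 237 and 120.1 in regression and was higher in every ATO library (log2 fold change 3.15, SE 0.38, adjusted p = 0.00212). Lrp5, a Wnt co-receptor, had 7.09, 13.2 and 11.7 CPM with water, 40.6, 66.3 and 105 in progression and 31.4, 28.5 and 29.5 in regression (log2 fold change 2.11, SE 0.38, adjusted p = 0.00894). Each of these passed in all 9 fits without a library. The relative of Kremen1, Kremen2, was lower in every ATO library (log2 fold change -6.15). The other fall was Wif1, a secreted Wnt inhibitor whose libraries overlapped.

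Among the coding falls with the widest gaps were Ms4a4b, Fcrl1, Cd53, Lcp1 and Gimap5, genes known from leukocytes, beside Grifin, Rsph1, Lysmd2, Nefh and Sh3bgrl2. Ms4a4b, a membrane protein gene of T cells (chromosome 19, 11443553 to 11467055), had 869, 376 and 477 CPM with water, 5.55, 2.198 and 0.294 in progression and 28.8, 19.5 and 45.8 in regression. All ATO libraries lay far below water, and the progressing ones lay below the regressing ones (log2 fold change -5.96, SE 0.63, adjusted p = 0.00131). Its neighbours on chromosome 19 fell with it: Ms4a4c by 5.86, Ms4a6c by 2.56, Gm8369 by 5.43 and Ms4a6b by 3.14 on the log2 scale, each held in all 9 fits without a library. Ms4a4d, at the edge of this stretch, did not pass (log2 fold change -0.92, adjusted p = 0.281). Members of this family are alike in sequence, and reads shared among them could not be assigned with certainty.

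Cd53, a tetraspanin of leukocytes, had 362, 618 and 381 CPM with water, 37.3, 75.5 and 18.2 in progression and 101, 69.6 and 97.6 in regression (log2 fold change -2.86, SE 0.39, adjusted p = 0.00325). Lcp1, the plastin that bundles actin in leukocytes (chromosome 14, 75131101 to 75230842), had 1326, 1542 and 1384 CPM with water, 90.6, 263 and 285 in progression and 408, 331 and 375 in regression (log2 fold change -2.33, SE 0.34, adjusted p = 0.00452). Fcrl1, an Fc receptor-like gene of B cells, had 89.9, 46.8 and 32.5 CPM with water, 1.17, 1.35 and 0.368 in progression and 4.89, 6.28 and 5.93 in regression (log2 fold change -4.58, SE 0.44, adjusted p = 0.000833). Fcrl1 was higher in regressing than in progressing tumours, by 2.56 (SE 0.56, adjusted p = 0.021). Gimap5, a GTPase gene needed for lymphocyte survival, had 60.04, 56.97 and 72.98 CPM with water, 2.47, 12.2 and 8.31 in progression and 16.3, 16.2 and 16.8 in regression (log2 fold change -2.500, SE 0.40, adjusted p = 0.00626). It belongs to a family of related neighbours, so its reads are uncertain to that extent. Lysmd2, a LysM domain gene, had 83.9, 44.9 and 80.9 CPM with water, 1.23, 1.18 and 2.35 in progression and 6.87, 4.73 and 12.1 in regression (log2 fold change -4.297, SE 0.39, adjusted p = 0.000792). Its progressing libraries lay below all regressing ones, with a difference of 2.31 (SE 0.49, adjusted p = 0.0199).

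Sh3bgrl2, an SH3-binding protein gene, had 101, 57.7 and 317 CPM with water, 17.2, 5.92 and 3.46 in progression and 8.04, 8.05 and 16.6 in regression (log2 fold change -4.01, SE 0.59, adjusted p = 0.00509). Water replicate 3 held the top value, and leaving it out gave a log2 fold change of -3.01 (adjusted p = 0.0121). Nefh, a neurofilament chain, had 189, 199 and 137 CPM with water, 0.432, 38.5 and 27.6 in progression and 9.59, 10.02 and 27.6 in regression (log2 fold change -3.23, SE 0.80, adjusted p = 0.0289). Every ATO library was below water, but the call was lost without water replicate 1 (0.06), water replicate 2 (0.0685), progressing replicate 3 (0.0609), regressing replicate 1 (0.0731) or regressing replicate 2 (0.0818), with those adjusted p-values in parentheses. Grifin, a lens galectin-like gene, had 4.13, 3.74 and 6.24 CPM with water, 0, 0.592 and 0.515 in progression and 0.124, 0.0706 and 0.396 in regression (log2 fold change -4.096, SE 0.83, adjusted p = 0.0144) and lost its call without regressing replicate 2 (0.052). The widest falls among noncoding genes and provisional symbols were Gm8369, 4933440M02Rik and 8030453O22Rik. 8030453O22Rik had 10.6, 4.51 and 13.6 CPM with water, 0.185, 0.338 and 0 in progression and 0.866, 0.0706 and 0.33 in regression (log2 fold change -5.103, SE 0.82, adjusted p = 0.00662), apart in all 9 libraries and held in all 9 fits.

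Genes that present antigen on class II were lower throughout the list but for 1 member that did not pass. Of 13 tested, 12 fell and 0 rose (0 at an unadjusted p under 0.05 and 0 by DESeq2), 11 of them without overlap, with a median log2 fold change of -1.97, against 7.3% of all tested genes called lower. H2-Oa, a chain that tunes peptide loading (chromosome 17, 34092340 to 34095234), had 64.2, 50.4 and 61.6 CPM with water, 9.99, 16.1 and 9.56 in progression and 18.1, 15.7 and 18.8 in regression (log2 fold change -2.02, SE 0.27, adjusted p = 0.0032). The 6 ATO libraries spanned a range of 9.56 to 18.8 CPM, below all water libraries. H2-Eb1, a peptide-binding chain, had 723, 1441 and 544 CPM with water, 135, 221 and 191 in progression and 462, 287 and 451 in regression, with regressing libraries between the others (log2 fold change -1.74, SE 0.34, adjusted p = 0.0125). H2-Aa, the alpha chain of the main class II molecule, had 1091 ± 258 CPM (SD, n = 3) with water, 121 ± 78.2 in progression and 666 ± 158 in regression (log2 fold change -1.94, SE 0.37, adjusted p = 0.0117). Cd74, the invariant chain, fell by 2.67 on the log2 scale (adjusted p = 0.0153) and did not stand in all fits, not passing without water replicate 2 or regressing replicate 2 (adjusted p up to 0.0546). Ciita, the master regulator of class II genes, had 73.9 ± 37.1 CPM (SD, n = 3) with water, 7.804 ± 5.89 in progression and 35.7 ± 4.401 in regression (log2 fold change -2.14, SE 0.56, adjusted p = 0.0346), passing in 3 of the 9 fits, those leaving out water replicate 3, progressing replicate 1 or progressing replicate 2 (adjusted p up to 0.118 in the others). Of the 12 calls, 5 held in all 9 fits. The list gave 6 calls without water replicate 2, 7 without regressing replicate 1 and 6 without regressing replicate 2, and 1 with ATO as one group.

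Class I presentation genes were lower too. Of 18 tested, 11 fell and 0 rose (0 at an unadjusted p under 0.05 and 0 by DESeq2), 10 of them without overlap, with a median log2 fold change of -1.40. H2-M3, a class I molecule for formylated peptides (chromosome 17, 37270220 to 37274484), had 58.9, 54.2 and 43.5 CPM with water, 10.1, 11.7 and 10.7 in progression and 26.8, 21.2 and 28.9 in regression. Water, regressing and progressing libraries stood in that order without overlap (log2 fold change -1.65, SE 0.25, adjusted p = 0.00527), and the outcomes differed by 1.24 (SE 0.31, adjusted p = 0.0305). Psme2, an activator subunit of the proteasome, had 103, 188 and 127 CPM with water, 33.1, 56.2 and 28.4 in progression and 55.5, 44.4 and 63.8 in regression (log2 fold change -1.59, SE 0.29, adjusted p = 0.00934). Tapbp, which holds class I at the peptide transporter, fell by 1.72 on the log2 scale (SE 0.33, adjusted p = 0.0117). H2-K1, a classical class I heavy chain, had 1792 ± 449.8 CPM (SD, n = 3) with water, 197 ± 167 in progression and 1030.1 ± 267 in regression (log2 fold change -1.99, SE 0.45, adjusted p = 0.0212), not passing without water replicate 1, water replicate 3, regressing replicate 1 or regressing replicate 2 (adjusted p up to 0.0654). B2m, the shared light chain, was lower in all 6 ATO libraries but did not pass (log2 fold change -1.01, adjusted p = 0.0781). H2 genes share sequence, so their reads may be split among relatives. In the fits without a library the list gave 7 calls without water replicate 2, 7 without progressing replicate 3, 4 without regressing replicate 1, 3 without regressing replicate 2 and 7 without regressing replicate 3, and 3 of the 11 calls held in all 9. With ATO as one group 1 passed.

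B cell genes fell in number, but few were apart in all libraries. Of 24 tested, 21 fell and 0 rose (0 at an unadjusted p under 0.05 and 0 by DESeq2), 5 without overlap, with a median log2 fold change of -4.51. Spib, a transcription factor of B and dendritic cells (chromosome 7, 44525993 to 44532071), had 127, 337 and 66.1 CPM with water, 0.925, 2.96 and 1.32 in progression and 18.4, 13.3 and 37.9 in regression (log2 fold change -4.804, SE 0.55, adjusted p = 0.00162). Progressing libraries lay below regressing ones and both below water, and the outcomes differed by 3.75 (SE 0.71, adjusted p = 0.0157). Blnk, an adaptor of the B cell receptor, had 63.7, 147 and 23.4 CPM with water, 8.57, 9.89 and 10.7 in progression and 13.2, 12.1 and 20.8 in regression (log2 fold change -2.67, SE 0.46, adjusted p = 0.00766), and its progressing libraries lay just below its regressing ones. Cd79b, a signalling chain of that receptor, had 177, 658 and 29.7 CPM with water, 1.54, 14.9 and 3.23 in progression and 23.5, 25.8 and 25.8 in regression (log2 fold change -4.497, SE 0.82, adjusted p = 0.00931). Water replicate 2 held the most, and leaving it out gave a log2 fold change of -3.01 (adjusted p = 0.0366). Summed over the 24 genes in the table, the level was 1629.6 to 14243 CPM with water, 199 to 251 in progression and 3186 to 4194 in regression, so the water libraries spanned the regressing ones. Cd79a, a B-cell receptor chain, was detected in all 9 libraries, and Ms4a1, a B-cell surface protein, was at 0 in 1 progressing library. The list gave 16 to 21 calls without a library and 5 with ATO as one group.

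Cytotoxic lymphocyte genes had 14 falls and 0 rises (0 at an unadjusted p under 0.05 and 0 by DESeq2) among 19 tested, 5 without overlap, and a median log2 fold change of -3.13. Ctsw, a cathepsin of cytotoxic granules (chromosome 19, 5465043 to 5468507), had 44.3, 73.2 and 98.4 CPM with water, 2.22, 3.13 and 0.588 in progression and 21.2, 14.9 and 18.1 in regression (log2 fold change -3.59, SE 0.43, adjusted p = 0.00204). All regressing libraries of Ctsw lay between progressing and water ones. Eomes, a transcription factor of memory and killer cells, had 7.61, 53.1 and 35.3 CPM with water, 1.05, 0.169 and 0.368 in progression and 1.36, 0.565 and 5.08 in regression (log2 fold change -4.82, SE 0.79, adjusted p = 0.00664). Nkg7, a granule membrane protein, had 14.8, 216 and 15.99 CPM with water, 0.0617, 0.845 and 0.0735 in progression and 11.9, 7.91 and 12.1 in regression. Its regressing values came close to the lower water values, and the log2 fold change of -5.49 became -3.02 when water replicate 2 was left out (adjusted p = 0.0278). The list's summed level was 215 to 1599 CPM with water, 34.2 to 157 in progression and 127 to 186 in regression. It gave 8 calls without water replicate 2, 9 without regressing replicate 1 and 8 without regressing replicate 2, and 1 with ATO as one group. Ncr1, a natural killer cell receptor, was at 0 in 6 of the 9 libraries.

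Of 32 chemokine and receptor genes tested, 1 rose (Ccl25) and 15 fell, 8 of the falls without overlap, with a median log2 fold change of -2.14. Ccl19, a chemokine that draws Ccr7-bearing cells (chromosome 4, 42754525 to 42756577), had 21.6, 44.1 and 50.9 CPM with water, 0, 1.44 and 1.03 in progression and 3.71, 1.55 and 5.21 in regression (log2 fold change -4.53, SE 0.76, adjusted p = 0.00725). Both ligand and receptor, Ccl19 and Ccr7, were lower in every ATO library. Cxcl9, an interferon-induced chemokine, had 33.9, 121 and 34.02 CPM with water, 0.74, 3.89 and 0.662 in progression and 23.8, 8.61 and 26.7 in regression (log2 fold change -3.42, SE 0.63, adjusted p = 0.00998), and was higher in regressing than in progressing tumours, by 3.496 (SE 0.83, adjusted p = 0.027). Ccl25, made by thymic epithelium, rose with overlap (log2 fold change 1.71, adjusted p = 0.0159). The Ccl19 promoter window (RefSeq) is shown for its match to the interferon-stimulated response element (GAAA, 2 bases of any kind and GAAA, in capitals, both strands searched), at chr4:42756316-42756615 (minus strand) of GRCm38.p6.
Ccl19: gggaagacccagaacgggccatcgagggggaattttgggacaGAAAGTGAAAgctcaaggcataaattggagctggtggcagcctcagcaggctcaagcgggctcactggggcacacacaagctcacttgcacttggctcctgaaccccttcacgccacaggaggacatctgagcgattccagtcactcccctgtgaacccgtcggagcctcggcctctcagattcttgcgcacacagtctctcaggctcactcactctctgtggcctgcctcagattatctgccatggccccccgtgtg
This element was found in 1 of 9 windows of rises and 1 of 11 windows of falls, against 3.49% of all promoters. When 1 library was left out, 10 to 17 genes of the list passed, fewest without regressing replicate 2, and 4 passed with ATO as one group.

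Interferon response genes gave 11 falls and 0 rises (0 at an unadjusted p under 0.05 and 0 by DESeq2) of 35 tested, but 1, Cxcl9, was without overlap. Between the outcomes 19 of the 35 were higher in regressing tumours, against 6.45% of all tested genes, and the median log2 fold change was -0.24 in regressing and -1.98 in progressing tumours, each against the same 3 water libraries. The list gave 6 calls without water replicate 1, 4 without water replicate 3, 7 without progressing replicate 3, 5 without regressing replicate 1 and 3 without regressing replicate 2, and 0 with ATO as one group. Dendritic cell genes had 7 falls of 17 tested (4 without overlap) and macrophage genes 4 of 24 (3 without overlap). Of all tested genes 7.3% were called lower. Ccl22, a dendritic cell chemokine, had 106, 21.9 and 40.8 CPM with water, 0.247, 2.28 and 0.368 in progression and 16.7, 10.4 and 15.04 in regression (log2 fold change -3.95, SE 0.64, adjusted p = 0.00662). Ly6c2, a monocyte and T-cell surface gene, had 78.2, 527 and 523 CPM with water, 0.925, 3.04 and 3.46 in progression and 51.97, 45.7 and 53.6 in regression (log2 fold change -5.08, SE 0.55, adjusted p = 0.00146), with progressing far below regressing libraries. Dendritic cell genes gave 3 calls without water replicate 3 and 3 without regressing replicate 2, and 0 with ATO as one group. Their median log2 fold change was -0.03 in regressing and -2.30 in progressing tumours, and 6 of the 17 were higher in regressing tumours. They summed to 697 to 1422 CPM with water, 264 to 803 in progression and 1060.0 to 1524 in regression, so that the regressing and water libraries overlapped. Macrophage genes gave 2 without each of water replicates 1 and 3, progressing replicate 1 and all 3 regressing libraries.

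Gamma-delta and innate-like T-cell genes had 2 rises and 9 falls of 21 tested, against 3.57% higher and 7.3% lower among all tested genes. Etv5, a transcription factor of these cells, had 33.5, 36.6 and 181 CPM with water, 6.97, 6.26 and 2.57 in progression and 10.5, 7.76 and 12.3 in regression (log2 fold change -3.51, SE 0.54, adjusted p = 0.00527). Water replicate 3 was highest, and leaving it out gave a log2 fold change of -2.26 (adjusted p = 0.0162). Sox4, a transcription factor of early T cells, rose, with 16.1, 21.6 and 107 CPM with water, 269, 547 and 258 in progression and 287, 257 and 169.7 in regression (log2 fold change 2.59, SE 0.63, adjusted p = 0.0278). Sox4 was not past the threshold without water replicate 1 (0.0641), water replicate 2 (0.0679), regressing replicate 1 (0.0581) or regressing replicate 2 (0.0631), with the adjusted p in parentheses. The list gave 7 calls without water replicate 1, 5 without water replicate 3, 5 without regressing replicate 1, 2 without regressing replicate 2 and 7 without regressing replicate 3, and 1 with ATO as one group.

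Stress and metabolic genes included falls of serine and one-carbon enzymes. Of 28 genes of the integrated stress and unfolded protein response tested, 1 rose (Edem1) and 8 fell (Shmt2, Slc7a5, Mthfd2, Phgdh, Pdia4, Psat1, Aldh18a1 and Sdf2l1). Among all tested genes 3.57% were called higher and 7.3% lower. Mthfd2, a mitochondrial folate enzyme (chromosome 6, 83305691 to 83325908), had 72.5, 106 and 97.98 CPM with water, 19.2, 20.5 and 29.3 in progression and 23.7, 30.3 and 33.6 in regression (log2 fold change -1.83, SE 0.25, adjusted p = 0.00376). All ATO libraries lay below water and the outcomes overlapped. Psat1, an enzyme of serine synthesis, had 204, 398 and 296 CPM with water, 109, 129 and 81.7 in progression and 77.2, 87.2 and 85.99 in regression (log2 fold change -1.67, SE 0.26, adjusted p = 0.00566). Shmt2, which passes one-carbon units from serine, had 316, 603 and 309 CPM with water, 104, 191 and 189 in progression and 54.1, 60.99 and 55.99 in regression (log2 fold change -2.09, SE 0.29, adjusted p = 0.00414). Its level was lowest in regression, with a regressing minus progressing log2 difference of -1.501 (SE 0.36, adjusted p = 0.0278). Edem1, which takes misfolded glycoproteins out of the endoplasmic reticulum, had 124, 157 and 106 CPM with water, 635, 545 and 1380.2 in progression and 1229, 1307 and 727 in regression and rose (log2 fold change 2.904, SE 0.42, adjusted p = 0.00452). These 4 calls held in all 9 fits without a library. Atf4, the transcription factor of this response, had a log2 fold change of -0.30 (adjusted p = 0.658). The list gave 5 calls without water replicate 2, 5 without regressing replicate 1 and 5 without regressing replicate 2, and 3 with ATO as one group.

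In glycolysis 1 of 22 tested genes rose and 3 fell, against 3.57% higher and 7.3% lower among all tested genes. Ldhb, a lactate dehydrogenase chain (chromosome 6, 142490249 to 142507957), had 10.7, 18.1 and 43.6 CPM with water, 334, 299.9 and 351 in progression and 221, 265 and 263 in regression, with every ATO library far above water (log2 fold change 3.57, SE 0.46, adjusted p = 0.0026). Slc16a3, a lactate exporter, had 53.5, 80.7 and 51.9 CPM with water, 28.2, 14.03 and 12.6 in progression and 3.28, 2.54 and 4.02 in regression (log2 fold change -2.999, SE 0.34, adjusted p = 0.00154), lowest in regressing tumours, with a difference between outcomes of -2.47 (SE 0.43, adjusted p = 0.0124). Slc2a3, a glucose transporter, had 80.9, 64.7 and 59.5 CPM with water, 12.9, 34.2 and 23.8 in progression and 25.9, 25.9 and 23.2 in regression (log2 fold change -1.49, SE 0.30, adjusted p = 0.0146), which missed the threshold without water replicate 1 (0.0516) or regressing replicate 2 (0.0501). Pgk1, a glycolytic kinase, was lower as well (log2 fold change -1.07, SE 0.28, adjusted p = 0.0355), passing in 1 of the 9 fits, the one leaving out regressing replicate 3 (adjusted p up to 0.107 in the others). The list gave 2 calls without water replicate 1 and 2 without regressing replicate 2.

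Among genes tied to arsenic, those of PML and SUMO and those of arsenic handling were examined. Pml, whose protein arsenic degrades (chromosome 9, 58218076 to 58249786), had 170.2, 119 and 139.7 CPM with water, 35.5, 50.5 and 35.1 in progression and 64.4, 54.2 and 67.99 in regression and was lower in all 6 ATO libraries (log2 fold change -1.51, SE 0.23, adjusted p = 0.00519), a call held in all 9 fits without a library. Of 22 PML and SUMO genes, Pml and Daxx passed, both lower, where 7.3% of all tested genes were called lower. Daxx, a chaperone found with PML, had a log2 fold change of -0.86 (adjusted p = 0.0411), passing in 1 of the 9 fits, the one leaving out progressing replicate 1 (adjusted p up to 0.143 in the others). Of 15 arsenic handling genes, 3 fell and 0 rose (1 at an unadjusted p under 0.05 and 1 by DESeq2). The list gave 1 call without water replicate 3, 0 without regressing replicate 1, 0 without regressing replicate 2 and 1 without regressing replicate 3. Gsto1, a glutathione transferase that reduces arsenic species, had 74.8, 149 and 67.7 CPM with water, 42.2, 25.02 and 38.2 in progression and 26.1, 19.6 and 43.5 in regression (log2 fold change -1.59, SE 0.34, adjusted p = 0.0176), with a call lost without water replicate 2 (0.0819), regressing replicate 1 (0.0537) or regressing replicate 2 (0.0547). Aqp3 and Aqp9, channels that admit arsenous acid, were the other members that fell. Aqp3 had a log2 fold change of -2.86 (adjusted p = 0.0458), passing in 2 of the 9 fits, those leaving out water replicate 2 or progressing replicate 2 (adjusted p up to 0.183 in the others). Aqp9 had one of -3.48 (adjusted p = 0.0295), passing in 2 of the 9 fits, those leaving out water replicate 1 or water replicate 2 (adjusted p up to 0.176 in the others).

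The usual sentinels of metal and oxidative stress did not separate the groups. Hmox1, heme oxygenase, had 25.7, 177 and 21.5 CPM with water, 94.04, 106 and 41.9 in progression and 24.8, 24.4 and 23.5 in regression (log2 fold change -0.76, SE 0.59, adjusted p = 0.425). Mt1 had 11.8, 134 and 20.6 CPM with water, 163, 281 and 51.7 in progression and 19.1, 24.9 and 94.96 in regression (log2 fold change 0.66, SE 0.82, adjusted p = 0.63). Mt2 had 5.55, 37.1 and 21.4 CPM with water, 159, 219.6 and 63.4 in progression and 8.72, 11.8 and 64.4 in regression (log2 fold change 1.599, SE 0.76, adjusted p = 0.194). In all 3 genes the water and ATO libraries overlapped, and water replicate 2 held the top water value. Leaving it out gave log2 fold changes of 0.95 for Hmox1, 2.48 for Mt1 and 2.32 for Mt2, so that Hmox1 changed sign. None of them passed then (adjusted p = 0.138, 0.0955 and 0.154). The 2 metallothioneins are alike in sequence and their reads may be shared. Of 24 antioxidant genes of the NRF2 pathway 1 fell (Keap1, the inhibitor of NRF2, log2 fold change -0.77, adjusted p = 0.0467), not passing in any of the 9 fits without a library (adjusted p up to 0.146). Of 20 heat shock genes 1 rose with overlap (Hspa4l, log2 fold change 1.81), not passing without water replicate 1, water replicate 2, regressing replicate 1 or regressing replicate 2 (adjusted p up to 0.0853). Of 10 metallothionein and zinc transport genes tested, the importers Slc39a10 and Slc39a4 fell (log2 fold changes -1.31 and -2.74), Slc39a10 not passing without water replicate 2, water replicate 3, regressing replicate 1, regressing replicate 2 or regressing replicate 3 (adjusted p up to 0.0768) and Slc39a4 passing in 3 of the 9 fits, those leaving out progressing replicate 2, progressing replicate 3 or regressing replicate 3 (adjusted p up to 0.0864 in the others).

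For p53, whose mutant allele all 9 tumours carry, 4 of 34 target genes rose and 0 fell (4 at an unadjusted p under 0.05 and 2 by DESeq2), with a median log2 fold change of 0.35, beside 3.57% of all tested genes called higher. The median had opposite signs by outcome, -0.15 in regressing and 0.85 in progressing tumours, each against the same 3 water libraries. Of the 34, 8 were lower and 1 higher in regressing than in progressing tumours. The shares of all tested genes between outcomes were 6.18% lower and 6.45% higher. Trp53inp1, a p53-induced nuclear protein gene that promotes cell death and autophagy (chromosome 4, 11156431 to 11174379), had 128, 199.8 and 185 CPM with water, 656, 1764 and 663 in progression and 1047, 1061 and 544 in regression. It was higher in all 6 ATO libraries (log2 fold change 2.48, SE 0.45, adjusted p = 0.00931) and held in all 9 fits without a library. Polk, a translesion polymerase, had 14.7, 14.9 and 10.7 CPM with water, 30.3, 71.3 and 78.4 in progression and 27.3, 28.5 and 19.7 in regression (log2 fold change 1.53, SE 0.37, adjusted p = 0.0258), not passing without water replicate 1, water replicate 3, progressing replicate 3, regressing replicate 1 or regressing replicate 2 (adjusted p up to 0.0864). Mdm2, the ligase that degrades p53, was also higher in every ATO library, with 102, 93.2 and 81.9 CPM with water, 119.9, 539 and 147 in progression and 157, 162 and 107 in regression, but did not pass (log2 fold change 1.08, SE 0.46, adjusted p = 0.149). Cdkn1a, the cell cycle inhibitor p21, overlapped, with 8.45, 23.3 and 15.99 CPM with water, 26.9, 136 and 49.03 in progression and 4.95, 5.51 and 25.9 in regression (log2 fold change 0.88, SE 0.67, adjusted p = 0.411). Trp53 itself had 319, 284 and 231 CPM with water, 49.9, 153 and 57.8 in progression and 127, 137 and 99.3 in regression and was lower in every ATO library (log2 fold change -1.44, SE 0.34, adjusted p = 0.0255), and it did not pass without water replicate 1 (0.0729), water replicate 2 (0.0539), progressing replicate 3 (0.0559), regressing replicate 1 (0.0652), regressing replicate 2 (0.0651) or regressing replicate 3 (0.0557). The p53 target list gave 1 call without water replicate 1, 1 without water replicate 3, 2 without progressing replicate 3, 1 without regressing replicate 1 and 1 without regressing replicate 2, and 1 with ATO as one group.

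In the BCL2 family, which controls mitochondrial cell death, 2 of 20 tested genes rose and 4 fell. Of all tested genes 3.57% were called higher and 7.3% lower. Bcl2a1b had 80.9, 51.2 and 89.03 CPM with water, 13.4, 12.003 and 3.38 in progression and 12.1, 5.44 and 22.6 in regression (log2 fold change -2.700, SE 0.49, adjusted p = 0.00897), and Bcl2a1d had 49.5, 27.9 and 71.9 CPM with water, 2.28, 3.72 and 1.69 in progression and 9.34, 5.36 and 20.2 in regression (log2 fold change -3.19, SE 0.46, adjusted p = 0.00474). These are survival genes of leukocytes, alike in sequence, and each passed in all 9 fits without a library. The other 4 calls overlapped between the groups: Bcl2l1 and Bmf rose and Bcl2 and Bcl2a1a fell. Bcl2l1, a death inhibitor, had a log2 fold change of 1.497, SE 0.32, adjusted p = 0.0171, not passing without water replicate 1, water replicate 3 or regressing replicate 2 (adjusted p up to 0.0613). Bcl2, its relative, had a log2 fold change of -1.32, SE 0.36, adjusted p = 0.0431, passing in 1 of the 9 fits, the one leaving out water replicate 3 (adjusted p up to 0.22 in the others). Bmf, which promotes death, had a log2 fold change of 2.13, SE 0.60, adjusted p = 0.0453, passing in 1 of the 9 fits, the one leaving out progressing replicate 3 (adjusted p up to 0.129 in the others). Bcl2a1a had a log2 fold change of -2.83, SE 0.63, adjusted p = 0.02, not passing without water replicate 1, water replicate 3, regressing replicate 1 or regressing replicate 2 (adjusted p up to 0.0668). The list gave 2 calls without water replicate 1, 3 without water replicate 3, 3 without regressing replicate 1 and 2 without regressing replicate 2, and 1 with ATO as one group.

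**Figure D3:**
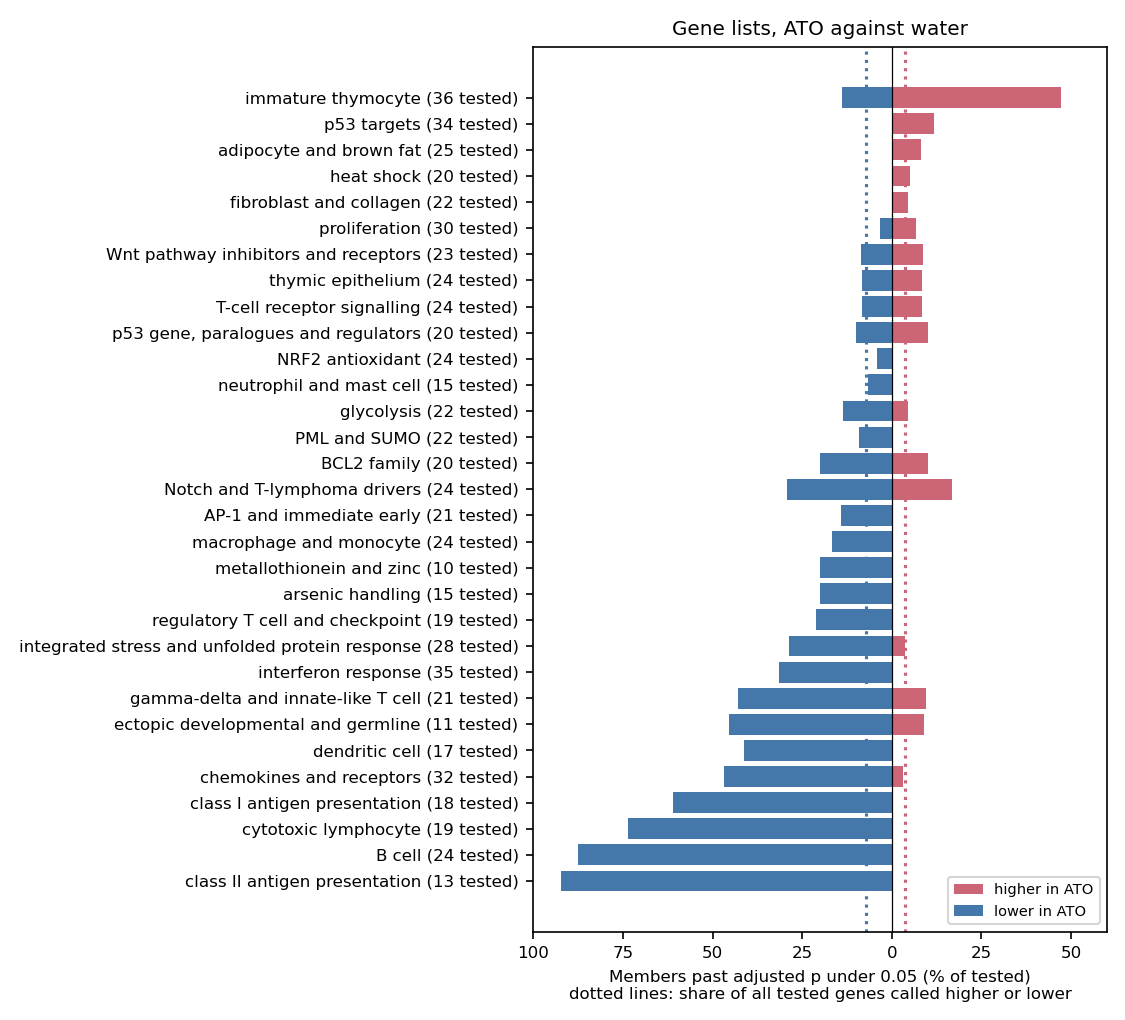
Share of the tested members of each gene list that passed an adjusted p of 0.05 in ATO against water, higher to the right and lower to the left, in percent. Dotted lines mark the shares of all tested genes, 3.57% higher and 7.3% lower. Immature thymocyte genes reach farthest to the right, and class II, B cell, cytotoxic and class I genes farthest to the left.

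The figure of list calls draws the lists with at least 1 call of the 36 examined. The endothelium, erythroid, cholesterol, imprinted growth and mitochondrially encoded lists had 0 calls by edgeR. At an unadjusted p under 0.05 they had 1, 1, 1, 3 and 1 genes, and by DESeq2 0, 0, 1, 3 and 1. Among the other lists, Pdcd1 (the checkpoint receptor PD-1) and Icos, a co-stimulatory receptor, were 2 of 4 falls of 19 regulatory T-cell and checkpoint genes (log2 fold changes -3.13 and -5.49), and both passed in each of the 9 fits without a library. Egr3, which T-cell receptor signals induce, was 1 of 3 falls among 21 immediate early genes (log2 fold change -3.84), with overlap. Plcg1, a phospholipase of receptor signalling, was 1 of 2 rises among 24 signalling genes, of which 2 fell (log2 fold change 1.26), not passing without water replicate 2, water replicate 3, regressing replicate 1 or regressing replicate 2 (adjusted p up to 0.0984). The regulators of p53 had 2 rises and 2 falls of 20, the fibroblast list 1 rise (Thy1, which thymocytes also carry) of 22 and the neutrophil and mast cell list 1 fall (Cpa3) of 15. The p53 regulators gave 0 calls without progressing replicate 3, 0 without regressing replicate 1 and 1 without regressing replicate 2. The fibroblast call was lost in 6 of the 9 fits without a library, standing without water replicate 2, progressing replicate 3 or regressing replicate 3, and the list's median log2 fold change was -1.14 in regressing and 0.43 in progressing tumours. The call of the neutrophil and mast cell list stood without water replicate 2 and in no other such fit. The checkpoint list gave 2 calls without regressing replicate 2, the immediate early list 1 call without progressing replicate 3, 1 without regressing replicate 1 and 1 without regressing replicate 2, and the signalling list 1 call without water replicate 3, 2 without regressing replicate 1 and 2 without regressing replicate 2. With ATO as one group none of these 6 lists had a call.

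The outcomes were then compared within the rises and falls. The fold change of regressing against progressing tumours does not draw on the water libraries, but its test takes scaling and spread from all 9 libraries. The test passed for 12.6% of all tested genes, 6.45% higher and 6.18% lower in regressing tumours. Of the 546 rises, 81 (14.8%) differed between outcomes, 23 higher and 58 lower in regressing tumours. Of the 729 falls, 131 (17.97%) differed, 106 higher and 25 lower in regressing tumours. In both directions the regressing tumours were more often nearer to water than the progressing ones among the genes that differed. The median log2 fold change of the rises was 2.03 in regressing and 2.26 in progressing tumours, and that of the falls -1.67 and -1.91, both against the same 3 water libraries. The 212 genes that differed became 20 without regressing replicate 1, 38 without regressing replicate 2, 56 without regressing replicate 3 and 60 without progressing replicate 3. They became 181, 295 and 199 without water replicates 1, 2 and 3.

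**Figure D4:**
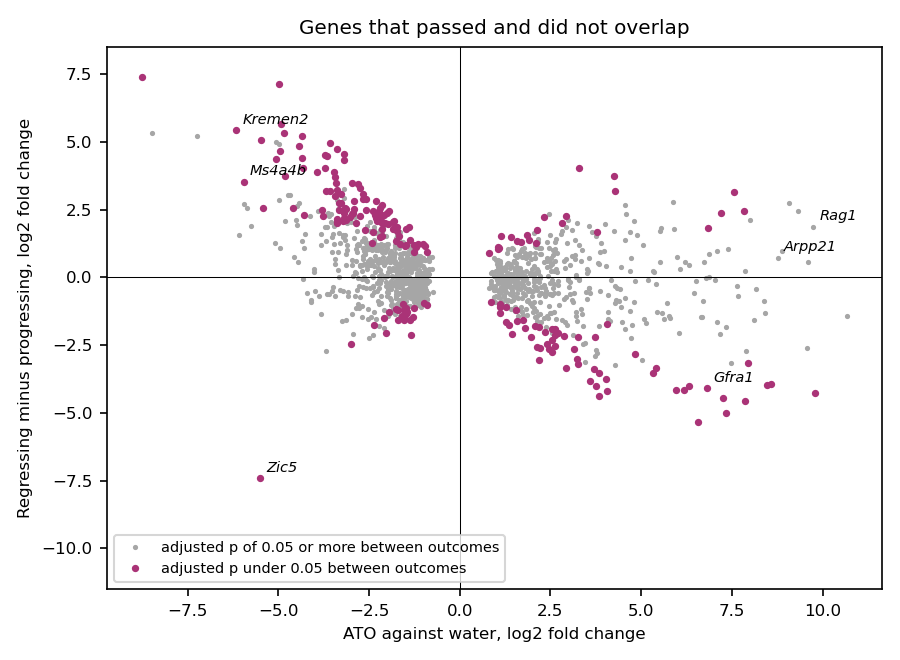
Each point is 1 of the 1275 genes that passed in ATO against water and did not overlap, with its log2 fold change in ATO against water (x) and its log2 difference between regressing and progressing tumours (y). Coloured points, 212 in all, differed between outcomes at an adjusted p under 0.05. Ms4a4b lies above 0 on the left and Gfra1 below 0 on the right.

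The edge of the selection can be seen in a pair of genes. C1s1, a complement protease, lay just inside, with 83.5, 57.3 and 119.9 CPM with water, 21.7, 32.3 and 30.8 in progression and 22.3, 14.9 and 57.2 in regression. Regressing replicate 3 all but touched water replicate 2. Gm32004, a noncoding gene, lay just outside: it had 0 counts in all water libraries, and 0.0617, 0 and 0.0735 CPM in progression and 5.14, 6.85 and 3.49 in regression, so that 1 progressing library tied with water. It was at least 12.8-fold higher over the mean of the ATO libraries, against a floor of 3 counts per water library.

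The same genes were read in samples that the choice did not use. In the CDX tumours of C57 mice (2 given ATO, 2 given PBS), whose genotype is labelled WT, 7.37% of the 15468 tested genes were higher and 6.57% lower with ATO. Of the rises, 515 were tested there, and 56 (10.9%) were higher and 13 (2.52%) lower, with a median log2 fold change of 0.24. Of the falls, 620 were tested, and 10 (1.61%) were higher and 61 (9.84%) lower, with a median of -0.19. Of the 24 coding genes with the widest separation, 20 were tested and 2 passed. Of these, Dntt was lower, with 1056 and 876 CPM after PBS and 463 and 437 after ATO (log2 fold change -1.10, SE 0.21, adjusted p = 0.0109). Rag1 and Arpp21 did not pass, with log2 fold changes of -0.02 and -0.17. Ptcra, outside those 24 genes, was lower too, with 177 and 82.5 CPM after PBS and 69.0 and 25.9 after ATO (log2 fold change -1.45, SE 0.42, adjusted p = 0.0423). Of the 36 immature thymocyte genes, 1 was higher and 3 were lower in these tumours. Without PBS replicate 1 the count of calls among the rises and falls was 37 in place of 140. Pml, one of the falls, was higher with ATO in the CDX tumours, with 40.8 and 36.8 CPM after PBS and 67.1 and 70.4 after ATO (log2 fold change 0.83, SE 0.21, adjusted p = 0.027). The difference between the systems was not tested.

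In U937 cells, with 1 library per treatment and so no test, 12.9% of 9888 genes matched by symbol had a log2 ratio of ATO to PBS over 1 and 9.29% one under -1. Of 299 rises measured there, 40 (13.4%) were past 1 and 30 (10.03%) past -1. Of 498 falls, 75 (15.1%) were past 1 and 95 (19.1%) past -1. Of the 24 widest coding genes, 4 reached a mean of 1 CPM in U937.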

How the data were processed

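RNA sequencing of W/W thymus tumours was used. Libraries were made from TRIzol RNA with a SMARTer kit, per the labels' protocols, whose text also holds a cell culture passage that does not describe thymus. Per the submitters' processing notes, FastQC 0.10.1, cutadapt 1.9.1 and HISAT2 2.0.1 were used with GRCm38 and mm10. The counting program and its use of strand are not given in the sources used here. One table per system of raw counts of reads by gene was deposited by the authors, with FPKM beside them, and the FPKM values served only to check library totals. Columns of sample values without a label numbered 0.

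The 9 libraries (12800367 to 17550594 counts) were fitted as 3 groups with edgeR 4.0.16 (R 4.3.3): filterByExpr, TMM, quasi-likelihood test of the mean of both outcomes minus water, and Benjamini-Hochberg adjustment at 0.05. CPM are TMM-scaled. The fit was tried on simulated counts with 100 genes changed 4-fold and 100 changed 32-fold, without a difference between outcomes. It recovered 51% and 99% of them and called 14 unchanged genes. The genes described, the 36 lists and the naming rule were chosen with earlier results of these data known. The rule names the 12 coding rises and 12 coding falls, and 3 others each way, with the widest gap among called genes averaging 1 CPM or more, up to 4 members per list, Trp53, Cdkn1a, Mdm2, Mt1, Mt2 and Hmox1, the genes at the edge of the selection and the 5 of the 100 widest that differ least between outcomes. Other genes were named after their values were seen, to make up counts of a list. Some genes that this rule names are not reported here. CDX tumours were fitted alone. U937 ratios used CPM with pseudocount 1. Alternatives were DESeq2 1.42.0, limma-voom (limma 3.58.1), other scalings, no filter, ATO as one group, a replicate block and leaving out libraries. No molecular identifiers are recorded, so PCR copies may be counted and the intervals and floors hold for counting error alone.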

Additional observations from a re-analysis of the deposited data

Results flagged for a closer look

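Of the 30 genes with the widest separation, 6 also differed between outcomes by edgeR's test of regressing against progressing tumours, each with 3 libraries a group. As regressing minus progressing on the log2 scale, the difference was -4.08 (SE 0.54, adjusted p = 0.00743) for Gfra1 and 1.84 (SE 0.53, adjusted p = 0.0462) for Nwd1, both higher in ATO than in water. Among the falls it was 3.53 (SE 0.77, adjusted p = 0.0215) for Ms4a4b, 2.56 (SE 0.56, adjusted p = 0.021) for Fcrl1, 2.31 (SE 0.49, adjusted p = 0.0199) for Lysmd2 and 2.58 (SE 0.62, adjusted p = 0.0282) for Gm8369. In each of the 6 genes the 3 libraries of one outcome lay on one side of those of the other.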

How the results depend on the processing

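ATO against water gave 1968 genes. It gave 3273 (1203 higher, 2070 lower) without the filter on low counts, 3448 (1452 and 1996) with DESeq2 and 366 (167 and 199) with ATO as one group of 6, where the outcome difference enters the spread. RLE factors, library totals, limma-voom and leaving out water replicate 2 with progressing replicate 2 stayed within 1.5 times. Without 1 library the count ran from 656 to 2099, that of higher genes from 226 to 817 and that of lower genes from 430 to 1282. It was 1280 without water replicate 3. The higher genes were 371, 346, 293 and 226 without water replicates 1 and 3 and regressing replicates 1 and 2, and the lower genes 852, 541 and 430 without progressing replicate 3 and regressing replicates 1 and 2. Among the 1275 genes that passed and did not overlap, the 212 outcome differences became 350 with DESeq2, 325 without water replicate 2 and progressing replicate 2, and 20 to 295 without 1 library. The 2226 genes without overlap became 2278 to 3686, most without water replicate 2, as fewer libraries have to be apart. The 140 calls in CDX tumours became 215 without the filter and 37 to 180 without 1 library. Of 101 named genes that passed, 47 passed in every setting, 49 lost the call with ATO as one group, and 0 changed sign. With pseudocount 2 for the gap, 20 of the 24 coding names were the same. The cause of these moves was not tested where none is stated.

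Replicate numbers recur in the groups, but the labels do not say that they mark a shared source. Same-numbered W/W libraries did not deviate together (correlations from -0.1245 to 0.1362). In the CDX tumours, with 2 libraries per group, same-numbered pairs had a correlation of -0.13 and crossed pairs one of 0.13. With the replicate block the counts were 1230 genes (446 higher, 784 lower), 141 outcome differences and 96 calls in CDX tumours, with 13 of the named calls lost. Crossing the numbers in the CDX tumours, an alternative chosen after seeing the data, gave 224 calls. Genes with few counts, such as Ptcra in water, are limited by depth, and their folds carry wide intervals.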
